A study of Mus musculus with 2 samples.

Results

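The neuromuscular junction genes followed here were 10 genes that build the muscle side of the synapse between a motor axon and a skeletal muscle fibre: the acetylcholine receptor subunits Chrna1, Chrnb1, Chrnd, Chrne and Chrng, the receptor-clustering genes Lrp4, Musk, Dok7 and Rapsn, and the esterase Ache. Every transcript model that the deposited tables assign to one of these gene names was taken. All 10 genes had reads in at least 1 of the 2 libraries, out of 15508 annotated genes with reads in either. They held 177 reads in 46 models in replicate 1 and 168 reads in 48 models in replicate 2. The samples were gastrocnemius, a calf muscle, from male B6CASTF1/J mice, the first-generation offspring of C57BL/6J and CAST/EiJ parents, at 36 days of age and with no treatment named. There was 1 group of 2 biological replicates, labelled as male 03 (replicate 1) and male 04 (replicate 2) under the same donor entry, so the p-values given below compare 2 libraries and no conditions. Each library was made from 2 µg of RNA of whole muscle and sequenced as long reads, in which a single read can cover a transcript from end to end.

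The neuromuscular junction works as a relay. A nerve impulse releases acetylcholine, which opens receptors packed into the muscle membrane under the nerve ending, and acetylcholinesterase in the synaptic cleft then destroys the transmitter. The receptor is a ring of a pair of alpha subunits with a beta, a delta and either a gamma subunit (fetal and denervated muscle) or an epsilon subunit (innervated adult muscle). Its clustering is set by agrin from the nerve, which binds LRP4 and so activates the kinase MuSK. DOK7 binds and activates MuSK inside the cell, and rapsyn holds the receptors together. In adult muscle the nuclei under the synapse, a small minority of all nuclei of a fibre, transcribe these genes most strongly. In RNA of whole muscle, fewer such nuclei and less RNA per nucleus cannot be told apart.

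Annotated genes took 1036455 reads in replicate 1 and 1374068 in replicate 2, so 1 read was worth 0.965 and 0.728 CPM (reads scaled to 1000000 of these totals), and a count of 0 allows up to 2.89 and 2.18 CPM. The reads carry no molecular identifiers in the tables, so all intervals below cover counting error only. Markers of the labelled tissue were abundant: the 5 muscle markers Acta1, Ckm, Mylpf, Tnnc2 and Myh4 together made up 224023 CPM (replicate 1) and 226226 CPM (replicate 2). Of 8 motor nerve markers, 6 were at 0 in both libraries, including Chat, the enzyme that makes acetylcholine, and Syt1 and Nefm had 3 reads between them, all in replicate 1. Schwann cell markers, 6 of 6 with reads in at least 1 library, together had 1080 CPM in replicate 1, against 253 in replicate 2.

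Taken one by one, Rapsn, Chrna1, Dok7, Ache, Chrne and Chrnb1 were detected at 12 to 47 reads per library, and Lrp4, Chrnd, Musk and Chrng at 0 to 9. Summed, the 10 genes reached 171 CPM in replicate 1 and 122 in replicate 2, a mean of 147 ± 34.3 CPM (SD, n = 2). The median level of the 10 was 16.4 ± 6.18 CPM. A long read stands for a whole or partial molecule whatever the length of the transcript. In plain CPM the order of mean levels was Rapsn, Chrna1, Dok7, Ache, Chrne, Chrnb1, Lrp4, Chrnd, Musk and Chrng, with Dok7 at 31.8 CPM in replicate 1 inside the range of Rapsn (29.9 and 34.2 CPM). Levels of different genes were also compared after division by the length of each gene's leading annotated model, as CPM per kilobase. Division by length lowers genes with long models: Chrna1, at 4386 bases, stood at rank 2 in CPM and rank 6 per kilobase. That rank rests on the annotated length. Most unannotated Chrna1 reads that reached the last exon ended 2577 (replicate 1) or 2576 (replicate 2) bases before its annotated end. A shorter length would raise the Chrna1 value per kilobase and could change its place in the order. On that scale Rapsn stood first, at 18.6 in replicate 1 and 21.3 in replicate 2, and its values did not overlap with those of Chrne, the next gene, at 10.9 and 11. Chrne, Ache, Dok7, Chrnb1 and Chrna1 followed in that order, and each pair of neighbours overlapped, so this order does not exceed the spread between the libraries. A gap with no overlap then lay between Chrna1 (5.72 and 5.97) and Chrnd (1.32 and 0). Chrnd overlapped with Lrp4 and Lrp4 with Musk (0.282 and 0.638), and Chrng was last at 0 and 0.262. Overlap here compares the library values alone and leaves out counting error. The values of Musk and Chrng did not overlap, but they rest on 1 and 3 reads against 0 and 1. Their exact Poisson intervals overlapped, at 0.0244 to 5.38 and 0.45 to 6.38 CPM for Musk in replicates 1 and 2. For Chrng they were 0 to 3.56 and 0.0184 to 4.05 CPM, so these genes were not separated beyond counting error.

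**Figure D1:**
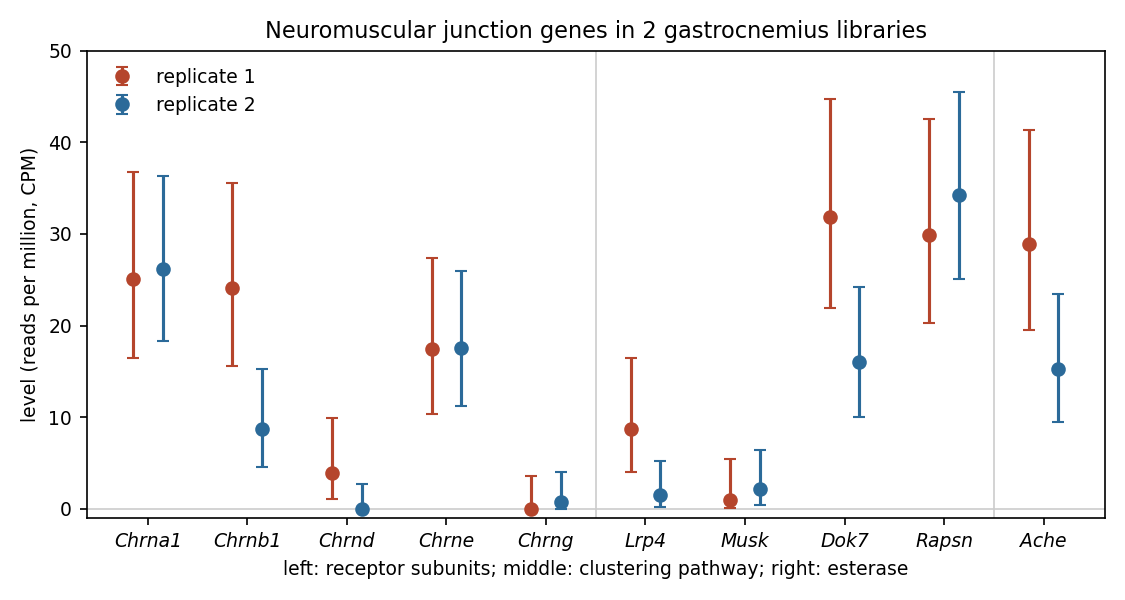
Level of each junction gene in CPM (vertical axis) in replicate 1 (left point) and replicate 2 (right point), with exact Poisson 95% intervals, ordered by role. Chrne and Chrna1 sit at nearly the same level in both libraries, Chrnb1, Dok7 and Ache have their higher value in replicate 1, and Chrnd, Chrng and Musk are at or near 0.

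The receptor subunits together held 73 reads in each library. Chrna1, which carries most of the acetylcholine-binding surface, had 26 reads (25.1 CPM) in replicate 1 and 36 (26.2 CPM) in replicate 2. Chrne, the adult subunit, had 18 reads (17.4 CPM) and 24 (17.5 CPM). For both genes the libraries differed by less than counting error. Chrnb1, the beta subunit, had 25 reads (24.1 CPM) in replicate 1 and 12 (8.73 CPM) in replicate 2, and its exact Poisson 95% intervals, 15.6 to 35.6 CPM and 4.51 to 15.3 CPM, did not overlap. Chrnd, the delta subunit, had 4 reads (3.86 CPM) in replicate 1 and none in replicate 2. Chrng, the fetal subunit, had no read in replicate 1 and 1 read (0.728 CPM) in replicate 2. As shares of the 5 subunits' reads, not corrected for length, Chrna1 took 35.6% (exact binomial 95% interval 24.7 to 47.7) in replicate 1 and 49.3% (37.4 to 61.3) in replicate 2, and Chrnd 5.48% (1.51 to 13.4) and 0% (0 to 4.93).

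The adult and fetal forms were told apart by the share of Chrne in the reads of Chrne and Chrng. It was 18 of 18 in replicate 1, or 100% (81.5 to 100), and 24 of 25 in replicate 2, or 96.0% (79.6 to 99.9), a mean of 98.0 ± 2.83% (SD, n = 2). The single Chrng read was in the annotated model Chrng-201 and held all 12 of its exons. The coding sequences of Chrne and Chrng (GENCODE M21) were identical at 64% of 1454 aligned bases, and the 10 pairs of subunits ranged from 58.2% (Chrna1 with Chrnb1 and with Chrne) to 65% (Chrnd with Chrng). Other nicotinic receptor subunits were nearly absent. Of 11 listed subunits of nerve and other tissues, 9 were at 0 in both libraries, Chrna9 had 4 reads in replicate 1 and 1 in replicate 2, and Chrnb2 had 1 and 0. Of the helper proteins that assemble such receptors, Ric3 had 0 and 1 reads and Tmem35a none.

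The promoters of this adult and fetal pair are shown because muscle E-boxes, bound by myogenic factors, and the N-box, bound by GABP at synaptic nuclei, are the textbook elements for these genes. RefSeq windows on GRCm38.p6 were found for 7 of the 10 genes (Dok7 with 2 starts). The stretches are the 250 bases before the annotated start, Chrne at chr11:70619195-70619444 on the minus strand and Chrng at chr1:87205561-87205810 on the plus strand, with capitals for the E-box CAGCTG and the N-box CCGGAA.
Chrne promoter: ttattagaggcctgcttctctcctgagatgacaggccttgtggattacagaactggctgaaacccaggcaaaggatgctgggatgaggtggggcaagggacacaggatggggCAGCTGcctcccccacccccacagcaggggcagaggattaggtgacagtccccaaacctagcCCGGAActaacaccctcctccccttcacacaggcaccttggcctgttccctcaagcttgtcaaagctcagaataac
Chrng promoter: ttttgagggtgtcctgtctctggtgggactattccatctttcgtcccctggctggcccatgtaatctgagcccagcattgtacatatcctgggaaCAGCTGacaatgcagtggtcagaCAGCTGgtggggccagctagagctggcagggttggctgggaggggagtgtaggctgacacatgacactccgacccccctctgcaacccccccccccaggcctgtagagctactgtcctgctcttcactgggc
Both strands were searched, over 250 bases before and 50 after the start. CAGCTG reads the same on both strands, and the motifs did not overlap. Chrne had 1 E-box, 138 bases before the start, and 1 N-box, 76 bases before it. Chrng had 2 E-boxes and no match to the N-box letters. Chrna1 had 2 E-boxes and Musk 1, and the windows of Dok7, Ache and Chrnb1 had no match to either motif. Of all 32851 promoter windows in the table, 16.3% held CAGCTG and 14.9% held CCGGAA, and a match describes the letters of the sequence alone.

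Chrne lies on chromosome 11 (70614883 to 70619216, minus strand, mm10), and its models differed most near the 3′ end. The annotated 12-exon model Chrne-202 led with 9 reads in each library. Exon 11, 107 coding bases at 70615208 to 70615314, was absent from 3 of 17 reads that joined exon 12 to exon 11 or past it in replicate 1, 17.6% (3.80 to 43.4), and from 5 of 18 in replicate 2, 27.8% (9.69 to 53.5). The intervals overlap widely. An 11-exon chain that differs from Chrne-202 only in this exon had 2 reads in replicate 1 and 4 in replicate 2. The junction that skips exon 11 is annotated in Chrne-204, a model of 2 exons, and 107 is no multiple of 3, so the frame shifts: translated from the annotated start codon, the chain without exon 11 has 1344 coding bases up to the first stop in frame, against 1482 in Chrne-202. The kept and skipped forms, with exon 11 in capitals between the last 20 bases of exon 10 and the first 20 of exon 12, are these.
Chrne exon 11 kept: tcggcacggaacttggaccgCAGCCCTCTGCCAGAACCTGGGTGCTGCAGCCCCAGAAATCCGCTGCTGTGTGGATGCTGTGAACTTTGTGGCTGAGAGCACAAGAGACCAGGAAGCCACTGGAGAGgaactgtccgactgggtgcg
Chrne exon 11 skipped: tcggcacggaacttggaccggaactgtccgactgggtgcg

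Where exon 11 was kept, its acceptor varied by 3 bases, which adds a codon (1485 coding bases in Chrne-201). The longer form had 1 of 14 reads in replicate 1, 7.14% (0.181 to 33.9), and 2 of 11 in replicate 2, 18.2% (2.28 to 51.8). The 3 added bases, in capitals, repeat the 3 that follow them.
Chrne long acceptor: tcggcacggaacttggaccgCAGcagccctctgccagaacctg
Chrne short acceptor: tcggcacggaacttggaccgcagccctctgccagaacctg
Further Chrne reads held introns. In replicate 1, 5 of 18 reads kept at least intron 9, and 4 of these also introns 7 and 8. In replicate 2, 2 of 24 reads kept introns 9 and 10. Exon 5 was skipped through an unannotated junction in 1 read of each library. A model of 246 bases that is exactly exon 12 had 1 read in replicate 1 and 6 in replicate 2. The gene 4930544D05Rik lies within intron 8 on the opposite strand and had 0 reads in replicate 1 and 1 in replicate 2.

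The other subunits are given by model in the same way. Chrna1 (chromosome 2, 73563215 to 73580338, minus strand) has a single annotated 9-exon chain, Chrna1-201, with 23 reads in replicate 1 and 30 in replicate 2. Of its reads with more than 1 exon, 24 of 25 in replicate 1, 96.0% (79.6 to 99.9), and 31 of 34 in replicate 2, 91.2% (76.3 to 98.1), followed the annotated chain, with no unannotated junction and no retained intron. The exception in replicate 1 kept introns 6 and 8, and the 3 in replicate 2 held an unannotated junction. The unannotated Chrna1 models that reached the last exon ended 2577 bases before its annotated end in replicate 1 (3 of 3 reads) and 2576 bases before it in replicate 2 (5 of 6 reads). The annotated model is listed with the annotated end, so the ends of its own reads are not visible in these tables. Chrnb1 (chromosome 11, 69784036 to 69795943, minus strand) had 17 reads in replicate 1 and 8 in replicate 2 in the 11-exon model Chrnb1-201. Exon 2 of Chrnb1 was skipped in 2 reads of replicate 1 and 1 of replicate 2, introns 3 and 4 were kept in 2 reads of replicate 1, and an unannotated exon of 55 bases at 69791158 to 69791212 was in 1 read of replicate 1. Of the 4 Chrnd reads (chromosome 1, 87190607 to 87200070, plus strand), 2 were in the 12-exon model Chrnd-201.

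The clustering genes ranged from mean levels of 1.57 CPM (Musk) to 32.1 CPM (Rapsn). Rapsn, which encodes rapsyn, had 31 reads (29.9 CPM) in replicate 1 and 47 (34.2 CPM) in replicate 2. Dok7 had 33 reads (31.8 CPM) and 22 (16.0 CPM). Lrp4, the agrin receptor, had 9 reads (8.68 CPM) and 2 (1.46 CPM). Without incomplete and genomic models its mean level was 1.13 CPM in place of 5.07 CPM, and it had too few reads to be tested. Musk, the kinase, had 1 read (0.965 CPM) and 3 (2.18 CPM), both under the level that a count of 0 allows or at it. Rapsn and Musk had more CPM in replicate 2, and Dok7 and Lrp4 had more in replicate 1.

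Rapsn (chromosome 2, 91035620 to 91045729, plus strand) had most of its reads in 1 model: the 8-exon Rapsn-201 held 27 of 31 reads in replicate 1 and 40 of 47 in replicate 2. A form whose exon 8 begins 95 bases earlier, at 91045351, had 2 of 31 reads in replicate 1, 6.45% (0.791 to 21.4), and 2 of 46 in replicate 2, 4.35% (0.531 to 14.8). That acceptor is unannotated, and 95 is no multiple of 3. Rapsn-203, which lacks exon 3, had 1 read in replicate 2. The gene Gm13778 overlaps the 3′ part of Rapsn on the opposite strand and had 2 reads in replicate 1 and 6 in replicate 2. Whether the counting used strand is not given in the sources used here.

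Dok7 (chromosome 5, 35056766 to 35087839, plus strand) showed an alternative 3′ end in both libraries. The 7-exon model Dok7-203 led with 19 reads in replicate 1 and 7 in replicate 2. It ends in exon 7, which other reads left through a splice donor at 35079755 to join 3 further exons. Of reads with more than 1 exon that reached exon 7, 4 of 31 in replicate 1, 12.9% (3.63 to 29.8), and 6 of 16 in replicate 2, 37.5% (15.2 to 64.6), were spliced on. The 10-exon chain from the first exon had 3 reads in replicate 1 and 4 in replicate 2. All of its junctions are annotated, but no annotated Dok7 model with reads joins them in full. Translated from the start codon of Dok7-203, it has 1824 coding bases up to the stop codon that Dok7-201 also uses, against 1515 in Dok7-203, whose stop codon ends 18 bases past the donor. The last 20 bases before the donor are followed in each form as shown, with the stop codon of Dok7-203 in capitals.
Dok7 exon 7 read on: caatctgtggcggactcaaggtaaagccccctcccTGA
Dok7 exon 7 spliced on: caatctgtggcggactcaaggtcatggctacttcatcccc
A shorter exon 1, by 24 bases and in frame (1491 coding bases), had 3 of 26 reads in replicate 1, 11.5% (2.45 to 30.2), and 2 of 14 in replicate 2, 14.3% (1.78 to 42.8). In replicate 2, 6 of the 22 Dok7 reads lay in a single-exon genomic model of 1210 bases that runs from the donor to the end of exon 7. Replicate 1 had no read in it. These 6 reads run past the donor unspliced but, with 1 exon, were left out of the share spliced on. The same holds for 2 reads of replicate 1 in a single-exon model of exon 7.

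Lrp4 and Musk, the genes with the longest coding sequences here (5718 and 2682 bases), were seen mostly in models that did not span the coding part. Of the Lrp4 reads (chromosome 2, 91457511 to 91513779, plus strand), 5 of 9 in replicate 1 and 1 of 2 in replicate 2 were in 13-exon models that begin at the annotated start and end within intron 13. The 5-read model ended at 91479287, which is also the annotated end of Lrp4-203, and the 1-read model at 91478842. A single read, in replicate 1, ran through 39 exons from the first to the last, and included an unannotated exon of 59 bases (91509660 to 91509718) between exons 37 and 38. A second read of replicate 1 held the same exon with an acceptor 3 bases earlier, 62 bases in all. The single Musk read of replicate 1 (chromosome 4, 58285960 to 58377847, plus strand) ran from the first exon to 3544 bases past the annotated end of Musk-203, without exon 9 and with an unannotated exon of 30 bases. The 3 Musk reads of replicate 2 were 3 separate fragments, one of them a model listed at 1 base, and 1 of the 2 Lrp4 reads of replicate 2 was also listed at 1 base.

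Ache, the esterase, had 30 reads (28.9 CPM) in replicate 1 and 21 (15.3 CPM) in replicate 2. Its last intron tells 2 known forms apart. Spliced in full, it gives the tailed enzyme that the collagen ColQ anchors in the cleft, and kept, it gives the read-through form. Reads that left its donor through another junction would not enter the share below, and no such junction was listed. The intron (chromosome 5, 137293338 to 137294116, plus strand) was spliced in 29 of 30 reads that covered its donor in replicate 1, 96.7% (82.8 to 99.9), and in 18 of 19 in replicate 2, 94.7% (74.0 to 99.9), a mean of 95.7 ± 1.36% (SD, n = 2). The tail is encoded by the coding part of the last exon, 122 bases at 137294117 to 137294238, shown with its stop codon in capitals.
Ache coding part of the last exon: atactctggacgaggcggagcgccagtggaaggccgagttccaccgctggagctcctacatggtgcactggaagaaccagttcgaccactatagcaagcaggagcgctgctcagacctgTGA
The read that kept the intron ended in both libraries at 137295665, which is the annotated end of the neighbouring gene Ufsp1 on the same strand. Together with 3 spliced reads of replicate 1 that ran on as far, such models held 4 of 30 Ache reads in replicate 1, 13.3% (3.76 to 30.7), and 1 of 21 in replicate 2, 4.76% (0.120 to 23.8). Ufsp1 itself was given 3 reads in replicate 1 and 9 in replicate 2, and reads that cover both genes could have been counted to either.

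The 5′ part of Ache varied more than its tail. Ache-201 and Ache-202 differ by 3 bases at the acceptor of exon 2, and the longer exon had 11 of 24 reads in replicate 1, 45.8% (25.6 to 67.2), and 6 of 12 in replicate 2, 50% (21.1 to 78.9). This acceptor lies before the start codon at 137290034, so the coding length, 1845 bases in Ache-201, does not depend on it. A first exon that starts 511 bases upstream of that of Ache-201 was joined to exon 2 in 2 of 24 reads in replicate 1, 8.33% (1.03 to 27.0), and in 4 of 12 in replicate 2, 33.3% (9.92 to 65.1), through several unannotated donors. The gene Gm42456 overlaps this region on the opposite strand and had 4 reads in each library.

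**Figure D2:**
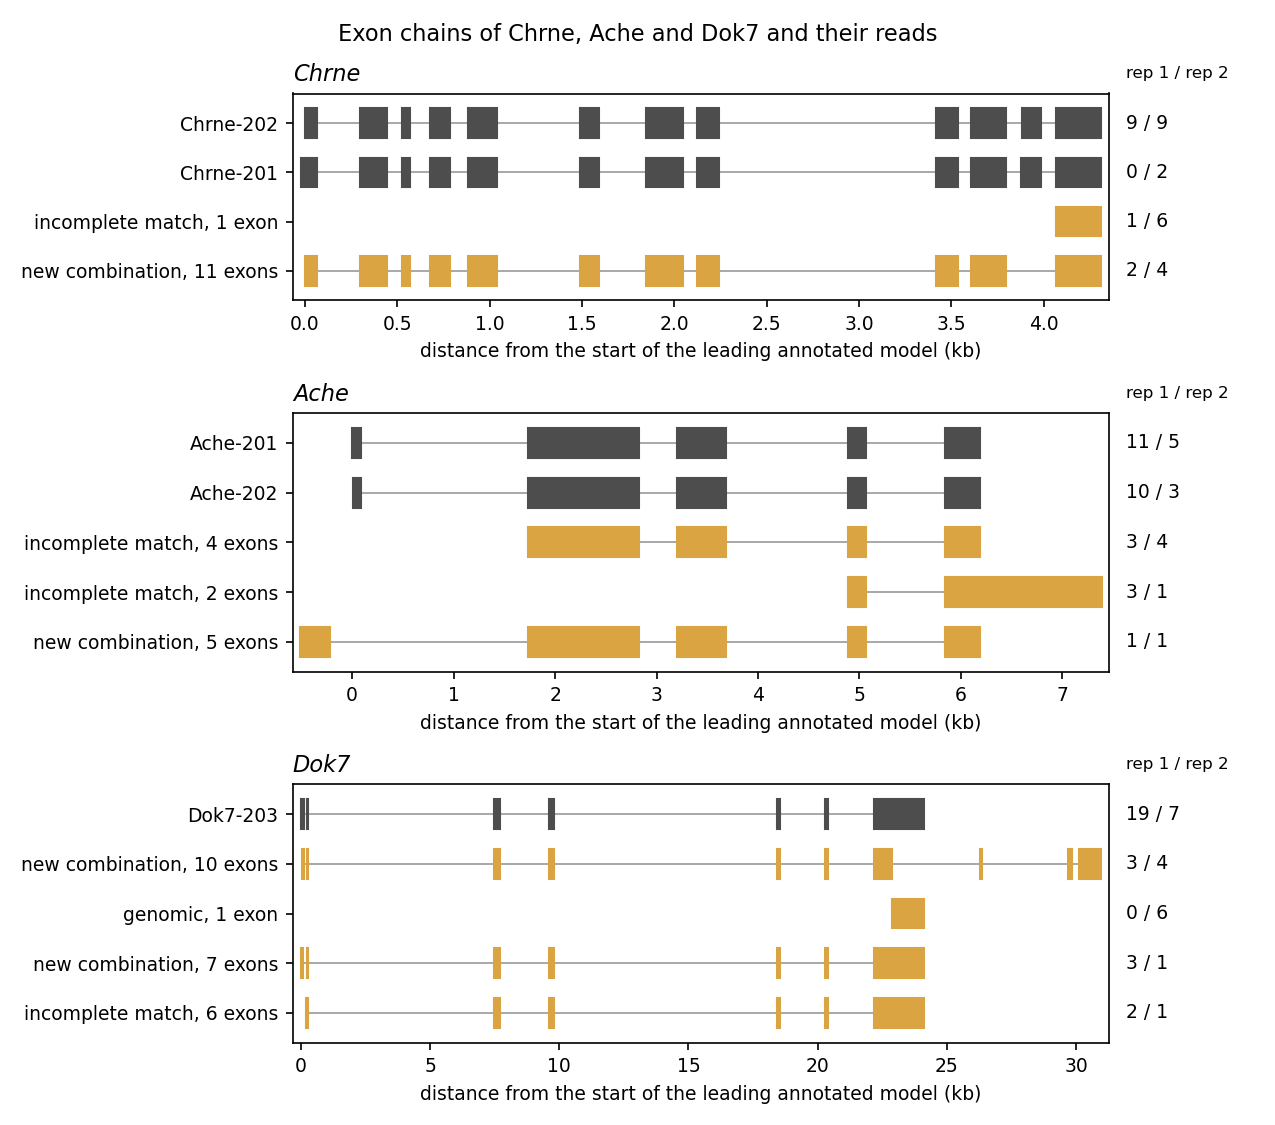
Exon chains of Chrne, Ache and Dok7 that are annotated, hold at least 3 reads in a library or were found in both (boxes, exons; lines, introns; grey, annotated; ochre, unannotated; the longest version is drawn where ends differ), by distance in kb from the start of the leading annotated model, with reads in replicate 1 and replicate 2 at the right. The chains show the skipped exon 11 of Chrne (2 and 4 reads), Ache reads that run past the annotated end, and the 10-exon Dok7 chain (3 and 4 reads).

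Over all 10 genes, the share of reads in annotated models was 66.7% (59.2 to 73.6) in replicate 1 and 63.1% (55.3 to 70.4) in replicate 2, against 69.5% and 67.6% over all annotated genes. Incomplete matches, models that hold part of an annotated chain, took 15.3% (10.3 to 21.4) and 16.7% (11.4 to 23.2) of the junction genes' reads, a mean of 16.0 ± 0.999% (SD, n = 2), against 11% and 16.1% over all annotated genes. New combinations of annotated splice sites took 10.2% (6.14 to 15.6) and 7.74% (4.18 to 12.9), against 3.55% and 3.54% over all annotated genes. Models with a new junction took 6.78% (3.55 to 11.5) and 7.14% (3.75 to 12.1), against 12.4% and 4.58% over all annotated genes, so the direction of that difference was not the same in the 2 libraries. No test was made of these differences, since reads of the same gene are not independent. Of the 18 and 13 reads in new combinations, Chrne held 7 and 5 and Dok7 6 and 6. All these shares count reads, so the most abundant genes weigh most in those over all annotated genes.

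**Figure D3:**
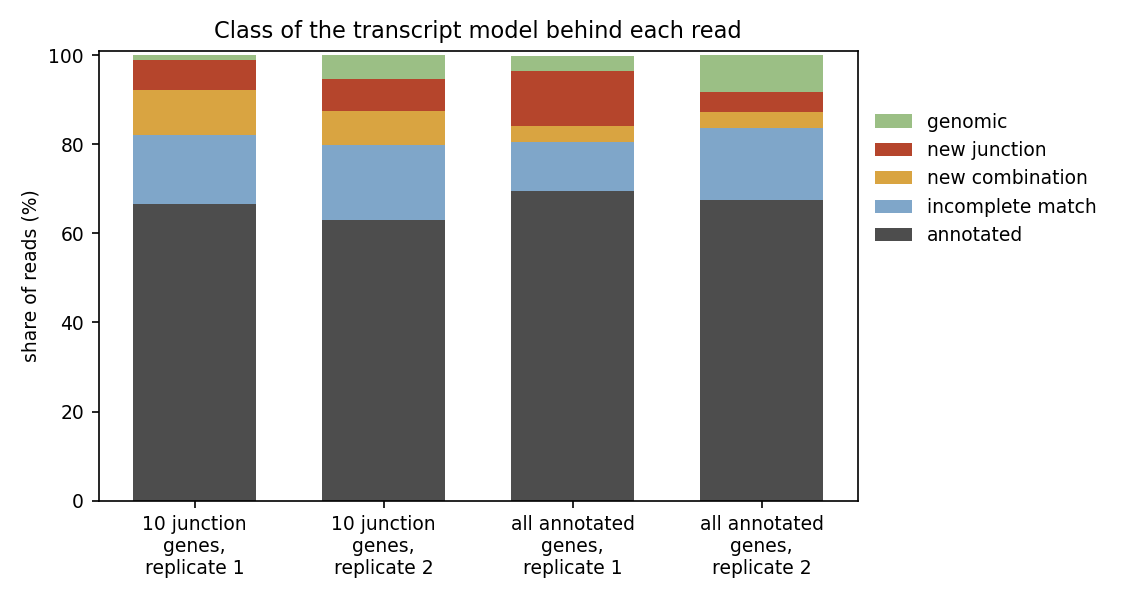
Share of reads (%) by class of the transcript model, for the 10 junction genes and for all annotated genes, each with replicate 1 left of replicate 2. New combinations fill 10.2% and 7.74% of the junction genes' bars and 3.55% and 3.54% of the bars of all annotated genes.

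Unannotated chains of more than 1 exon numbered 32 in replicate 1 and 30 in replicate 2, and 12 were found in both. The shared chains came from 7 genes, with 3 each in Dok7 and Ache, 2 in Rapsn and 1 each in Chrna1, Chrnb1, Chrne and Lrp4, and held 27 reads in replicate 1 and 23 in replicate 2. Of the 12, 10 used annotated junctions throughout.

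For most junction genes the listed models reached across the whole coding part. Annotated models held 118 of 177 reads in replicate 1 and 106 of 168 in replicate 2. They are listed with annotated ends, so their reads count as spanning whatever part each read covered. The model spanned the region from the annotated start codon to the stop codon for 150 of 177 reads in replicate 1, 84.7% (78.6 to 89.7), and for 130 of 168 in replicate 2, 77.4% (70.3 to 83.5). The share was above 90% in both libraries for Rapsn (30 of 31 reads in replicate 1 and 44 of 47 in replicate 2) and Chrna1 (24 of 26 and 33 of 36). For Ache it was 27 of 30 reads in replicate 1, 90.0% (73.5 to 97.9), and 12 of 21 in replicate 2, 57.1% (34 to 78.2). For Chrne it was 17 of 18 reads in replicate 1, 94.4% (72.7 to 99.9), and 16 of 24 in replicate 2, 66.7% (44.7 to 84.4). These intervals overlap within each gene. For Lrp4 it was 1 of 9 reads in replicate 1 and 0 of 2 in replicate 2.

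**Figure D4:**
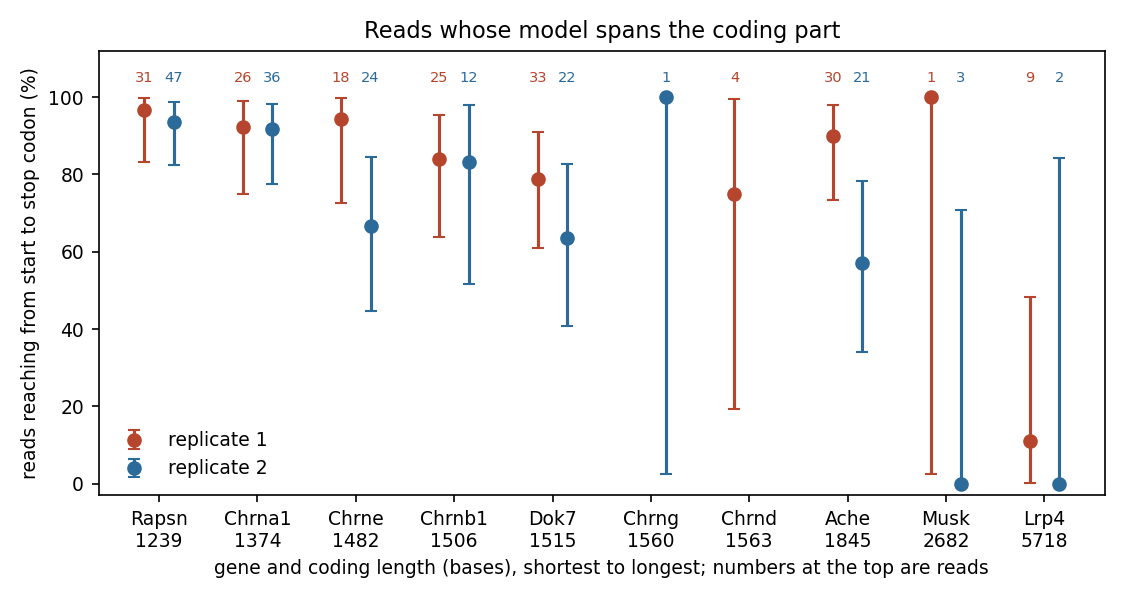
Share of reads (%) whose model reaches from the start to the stop codon, per gene in order of coding length, replicate 1 left and replicate 2 right, with exact binomial 95% intervals and read numbers at the top. Rapsn and Chrna1 are above 90% in both libraries, and Lrp4, the longest, is at 11.1% and 0%. Reads of annotated models count as spanning because these models are listed with annotated ends.

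The 2 libraries were then compared gene by gene. A gene entered the two-sided exact binomial test, given the library totals, if its 2 counts summed to 10 or more. It was called where the p, adjusted over all these genes by Benjamini and Hochberg, was under 0.05 and the ratio 2-fold or larger. Of 8339 genes tested, 1458 (17.5%) passed. These were 997 (12%) with more in replicate 1 and 461 (5.53%) with more in replicate 2, so differences of this size were common between these libraries. Of the 10 junction genes 7 had enough reads to be tested, and 1 was called, near the background share. Chrnb1 was higher in replicate 1, with a log2 ratio of 1.44 (replicate 1 over replicate 2), a ratio of 2.76 (1.34 to 6.03) and an adjusted p of 0.0193 by the exact binomial test. This call depends on the scaling. With TMM its log2 ratio was 1.18 and its adjusted p by the exact binomial test 0.0709, and with DESeq2 size factors 1.17 and 0.0758. Without the reads of incomplete and genomic models it was 1.27 with an adjusted p of 0.0668 by the exact binomial test, and Dok7 was called in its place (1.15 and 0.0487).

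The 6 other tested genes were not called. Their log2 ratios were 2.33 for Lrp4 (adjusted p 0.0674 by the exact binomial test), 0.98 for Dok7 (0.0555) and 0.91 for Ache (0.0961). They were 0.00 for Chrne, -0.06 for Chrna1 and -0.19 for Rapsn, with adjusted p of 1, 1 and 0.812 by the exact binomial test. The interval of the ratio was 0.508 to 1.91 for Chrne, 0.555 to 1.63 for Chrna1 and 0.537 to 1.41 for Rapsn, so differences within these ranges are not excluded. A ratio under 2-fold could not be called at any depth. The median log2 ratio of the 7 genes was 0.91, against 0.28 over all genes tested. TMM moved every log2 ratio by -0.26 and DESeq2 size factors by -0.27, and 68.4% of all calls were higher in replicate 1, against 40.4% with TMM and 39% with DESeq2 size factors. Schwann cell markers moved the same way as Chrnb1: of 5 tested, 3 were called, all higher in replicate 1, as were 12% of all genes tested. These 3 markers were Mbp (log2 ratio 2.89), Pmp22 (1.64) and Prx (3.53). Their part in the result was not tested.

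**Figure D5:**
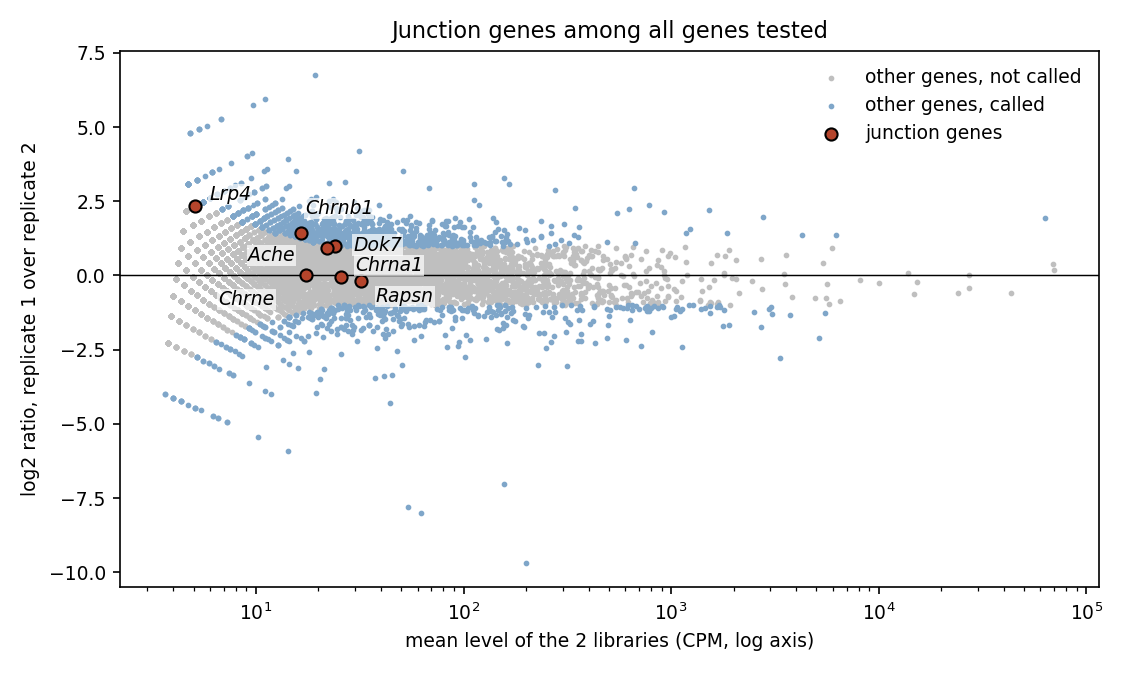
Log2 ratio of replicate 1 over replicate 2 (vertical axis) against the mean level in CPM (horizontal log axis) for the 8339 genes tested, with called genes in blue and the 7 tested junction genes in red. Chrnb1 at 1.44 is the called junction gene, and Chrne, Chrna1 and Rapsn lie between 0.00 and -0.19.

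Partners of the 10 genes were counted in lists drawn up by role. Of 19 genes of endplate signalling, 17 had reads and 15 were tested, of which 3 were called, against 17.5% of all genes tested. Crk (log2 ratio 1.61), an adaptor that DOK7 recruits, and Cttn (1.17), the actin-binding cortactin, were higher in replicate 1. Pdzrn3 (-1.54), a ligase that binds MuSK, was higher in replicate 2. The highest levels were those of Dvl1 and Dnaja3, which bind MuSK, and Prkar1a, a regulatory subunit of protein kinase A. Dvl1 had 148 CPM in replicate 1 and 90.2 CPM in replicate 2, Prkar1a 151 and 87.3 CPM, and Dnaja3 122 and 81.5 CPM. Dvl1 (log2 ratio 0.71), Prkar1a (0.78) and Dnaja3 (0.58) had an adjusted p under 0.05 by the exact binomial test but fell short of 2-fold. With TMM the adjusted p of Dnaja3 was 0.23 by the exact binomial test. The median log2 ratio of the 15 was 0.41. Cttn fell short of 2-fold with TMM (0.92) and with DESeq2 size factors (0.90). Macf1, outside the naming rule and chosen after its values were seen, was called higher in replicate 2 with DESeq2 size factors alone (-1.82, adjusted p 0.0495 by the exact binomial test).

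Of 12 genes of the synaptic matrix and the esterase anchors, 10 were tested, and Lamb1 (1.51), Lamb2 (1.32) and Lamc1 (1.58), chains of laminin, were called higher in replicate 1, as were 12% of all genes tested. Their list had a median of 1.24. Lamb1 was not called with TMM (1.25, adjusted p 0.0788 by the exact binomial test) or with DESeq2 size factors (1.24, 0.0835). Lamb2, the laminin chain concentrated at the synapse, had 89.7 CPM in replicate 1 and 35.7 CPM in replicate 2. Nid1, a basement membrane linker, had 23.2 and 10.2 CPM and was not called. Colq and Agrn fall outside the naming rule and were chosen for their roles after their values were seen. Colq, the collagen that anchors ACHE, had 8 reads in replicate 1 and 9 in replicate 2, and Agrn, the agrin gene, had 10 and 9. Of 6 genes of the synaptic dystrophin complex 3 were tested and none was called by the exact binomial test, against 17.5% of all genes tested. Plec had 189 CPM in replicate 1 and 127 CPM in replicate 2, Dtna 53.1 and 33.5 CPM, and Dag1 48.2 and 24.7 CPM. Of those 3, Plec (0.57) and Dag1 (0.96) had an adjusted p under 0.05 but fell short of 2-fold. Of 5 genes whose products glycosylate the receptor or supply its sugars, 3 were tested. Alg14 (-2.07) was called higher in replicate 2, as were 5.53% of all genes tested. It had 2.89 CPM in replicate 1 and 13.8 CPM in replicate 2. Dpagt1 had 22.2 and 12.4 CPM and Gfpt1 10.6 and 8.01 CPM.

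Genes that respond to denervation were set beside the adult subunit. Of 8 listed, all had reads and 4 were tested. Myog (1.33), a myogenic factor, was the 1 called, higher in replicate 1, as were 12% of all genes tested. It had 77.2 CPM in replicate 1 and 30.6 CPM in replicate 2. Hdac4 had 21.2 and 10.9 CPM and Gadd45a 12.5 and 18.9 CPM, and neither was called. Red blood cell markers together had 272 CPM (replicate 1) and 360 CPM (replicate 2), and Hba-a1 (151 and 191 CPM), Hbb-bs and Hba-a2 led. Of 4 tested, 0 were called by the exact binomial test, against 17.5% of all genes tested. Hbb-bs (log2 ratio -0.56) had an adjusted p under 0.05 but fell short of 2-fold. Satellite cell markers summed to 42.5 and 23.3 CPM, and Cdh15 (20.3 and 10.2 CPM), Chodl and Vcam1 led. Of 2 tested, 0 were called by the exact binomial test, against the same 17.5%.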

How the data were processed

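Long-read RNA sequencing of 2 gastrocnemius libraries was deposited as raw read counts per transcript model, 1 table per library, not pooled, per the file headers and values. Per the labels and the annotation headers, positions are on mm10 and models on GENCODE M21, and unannotated models come from TALON. The aligner is not given in the sources used here, nor is TALON's version. Each deposited table also sorts models into classes and lists their length and exon number, and paired files give exons. Over both files, all 94 entries of annotated transcripts of the 10 genes had the exons of GENCODE M21. mm10 is the genome of C57BL/6J, 1 parent of the cross, and all printed sequences are from it.

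Counts were summed per gene over all models; CPM used reads in annotated genes. The 10 genes and the lists were chosen with earlier results of these data known. The results of 2 genes are not reported here, and their lists were counted without them. Named were all 10 genes, their annotated chains with reads, unannotated chains with at least 3 reads in 1 library or found in both, and of other lists the called genes and the 3 highest. Tests were two-sided exact conditional binomial tests (Benjamini-Hochberg over genes with at least 10 reads in sum, 0.5 reads added for log2 ratios). They were checked on simulated counts with Poisson error alone, so the check does not cover variation between animals or library preparations. The quasi-likelihood test of edgeR has no residual degree of freedom here. TMM came from edgeR 4.0.16 and size factors from DESeq2 1.42.0, in R 4.3.3, the rest from Python 3.11.15 with scipy 1.17.1. Intervals are exact Poisson (counts) and Clopper-Pearson (shares), at 95%.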

Additional observations from a re-analysis of the deposited data

How the results depend on the processing

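Of 100 alternative values, 86 were counted as kept. A level or share was kept if it moved by no more than the SD between the libraries. A gene's log2 ratio was kept if its call did not change, and for genes not called the direction was not checked. A number of calls was kept if it stayed within a fixed ratio of the main value, whichever genes were called. With 2 libraries, leaving 1 out always moves a mean by less than their SD, so those values could only be counted as kept. A reversal could be counted only for a gene called in the main test, here Chrnb1, and there was none. The summed level of the 10 genes was 122 and 171 CPM without replicate 1 and without replicate 2, and 140 to 153 CPM under other choices of models or denominator. The median level was 12.0 to 20.7 CPM with 1 library left out, and 6.61 CPM per kilobase on the per-length scale, which divides by lengths above 1 kb. The share of Chrne was 96.0 to 100%, the share of incomplete matches 15.3 to 16.7% with 1 library left out and 12.0% in models with more than 1 exon. The spliced Ache tail was 94.7 to 96.7% and the annotated Chrna1 chain 91.2 to 96.0% with 1 library left out, and both were 100% in annotated models alone, which hold only these forms by construction. With TMM and with DESeq2 size factors 0 junction genes were called (exact binomial test; all 7 tested). Without incomplete and genomic models, 1 gene was called, and it was Dok7 (log2 ratio 1.15, adjusted p 0.0487 by the exact binomial test) in place of Chrnb1 (1.27, 0.0668); the cause was not tested. Calls over all genes were 1289 to 1551. Models of at least 50 bases, an alternative chosen after seeing the data, gave 148 CPM. Leaving out a library leaves no test of the difference. No paired analysis was possible because there is 1 group. Depth limits the low genes: 1 read is close to 1 CPM, and Chrnd, Chrng and Musk were within 4 reads of 0.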
